A study of Mus musculus with 9 samples.

Results

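Homologous recombination, the Fanconi anaemia pathway and the ATR checkpoint are the routes by which a dividing cell repairs broken or crosslinked DNA and holds back replication until the repair is done. Their genes were taken as every row of the expression table whose symbol has the form of a Fanconi complementation group gene, together with a list of 34 named genes. The name pattern gave 10 genes and the list gave the other 34, so that 44 of the 54532 rows were members. All 44 are protein-coding genes, spread over 17 chromosomes with 8 on chromosome 11.

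As background, a double-strand break that is to be repaired by recombination is first trimmed to a bare strand, a step begun by the MRE11-RAD50-NBN complex and CtIP. The bare strand is coated by the RPA trimer, and BRCA1, PALB2 and BRCA2 then help a recombinase to replace RPA and to invade the sister chromatid. Fanconi proteins act where both strands are linked together: a core complex with the E3 ligase subunit FANCL and the E2 enzyme UBE2T attaches ubiquitin to the FANCD2-FANCI pair. The kinase ATR is brought to RPA-coated DNA by ATRIP, is switched on by TOPBP1 and the 9-1-1 clamp, and signals through Claspin to the kinase CHK1. Most of these proteins work in S and G2 phase, when a sister chromatid is present.

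The cells were b.End3, a mouse line made from brain endothelium transformed with the polyoma middle T antigen, and the labels give the strain C57BL/6 and the cell type brain microvessel endothelial cells, while their growth note calls the line rat. There were 3 groups of 3 libraries each. Ctrl cells were left untreated. Ep1 and Ep2 cells were kept as a monolayer with 300 μg/mL porfimer sodium, a photosensitizer, for 90 min and then received 635 nm laser light at 100 mW/cm2, to a dose of 10 J/cm2 in Ep1 and 20 J/cm2 in Ep2. No library had the drug or the light alone, so their parts cannot be told apart. The time from light to lysis is not given in the sources used here, and nothing says whether the 3 libraries of a group came from separate cultures, so that p-values measure the spread between these libraries, which may be technical. Expression was measured by RNA sequencing, in FPKM (fragments per kilobase of gene model, scaled to the library's total), and a difference is given on the log2(FPKM + 1) scale, which understates the change of genes at a few FPKM or less.

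The recovered totals were 16240688 to 19509225 fragments on genes per library. A gene entered the test with at least 1 FPKM in at least 3 libraries, which kept 11727 genes, and was called at a Benjamini-Hochberg adjusted p of limma below 0.05. A differentially expressed gene (DEG) also had an absolute log2 fold change above 0.6. The endothelial label was only in part met. Of 12 endothelial marker genes 2 passed the filter, Flt1 at 6.66 to 11.7 FPKM and Eng at 1.03 to 1.46 FPKM, while Emcn and Erg were at 0 in all 9 libraries, Cldn5 was at 0 in 8, Cdh5 was at 0.524 to 1.09 FPKM, and Pecam1, Kdr, Tek, Tie1, Esam and Vwf did not exceed 0.242 FPKM. Of 6 epithelial markers 3 keratin genes were abundant, with Krt8 at 562 to 714, Krt18 at 230.5 to 332 and Krt19 at 135 to 324 FPKM, while Krt7 was at 0, Cdh1 did not exceed 0.103 FPKM and Epcam was at 0.607 to 2.03 FPKM. The summed level of the 4 leukocyte markers was 23.2 to 25.1 FPKM in Ctrl, 20.2 to 25.2 in Ep1 and 76.7 to 92.0 in Ep2, all but a trace of it Cd68, with Itgam at 0 and Ptprc at most at 0.00592 FPKM. The 6 epithelial markers summed to 1029 to 1081 FPKM in Ctrl, 937 to 1041 in Ep1 and 1155 to 1372 in Ep2, and the 6 fibroblast and mural markers stayed between 6.61 and 8.92 FPKM. The part of these shifts in the results was not tested. In bulk RNA, fewer cells of a type and less RNA per cell cannot be told apart.

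The promoters of these genes are given first, because many genes of S and G2 phase are driven through E2F sites, CCAAT boxes or the CHR element. RefSeq promoter sequences of GRCm38.p6 were at hand for 34 of the 44 members, in 39 entries, and the 250 bases before each start were searched on both strands. An E2F site, taken as TTTCCCGC, TTTGGCGC, TTTCGCGC or TTTGCCGC, was found in 4 of 39 entries (10.3%), against 3.48% of the promoters of tested genes and 1.86% of all 32851 promoters. The 4 were those of Bard1, Fancg, Topbp1 and Brca2. CCAAT was found in 23 of 39 entries (59.0%), against 35.8% of the promoters of tested genes and 33.8% of all. The CHR element, TTTGAA or TTCGAA, was found in 7.69% against 11.9% and 17.1%. A match is a description of these letters and not a binding site, and no match says only that the letters are absent from the window.

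The E2F matches of the 3 members that fell at the higher light dose are shown with 11 bases on each side, 5′ to 3′ on the strand of the gene, the match in capitals. The Bard1 window is chr1:71103163-71103192 on the minus strand, and its match ends 201 bases before the RefSeq start. The Fancg window is chr4:43010335-43010364 on the minus strand, with the match 44 bases before the start. The Topbp1 window is chr9:103305187-103305216 on the plus strand, with the match 121 bases before the start, and holds the site as its reverse complement.
Bard1: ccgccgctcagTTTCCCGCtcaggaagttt
Fancg: tttcttttcagTTTCCCGCggaaccgtctc
Topbp1: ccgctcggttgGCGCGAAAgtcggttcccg
Bard1 and Fancg share the same form of the site. The expression table puts the starts of the 3 genes at 71103146, 43010506 and 103305215 and not at the RefSeq starts, so that the distances depend on the annotation. By the table's own coordinates the Fancg window lies inside the gene, downstream of its start.

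The 2 members with the largest falls on the log2(FPKM + 1) scale, Rad54l and Brca1, held no E2F match but a CCAAT box each, and their 250 bases are shown with that box in capitals; they were chosen after their values were seen. As a share of the Ctrl mean, Rad54b, Fancb and Rmi2 kept less than Brca1 in Ep2, at 32.9%, 42.97% and 43.6% against 47.6%. The Rad54l sequence is chr4:116123690-116123939 and the Brca1 sequence chr11:101551956-101552205, both on the minus strand of GRCm38. The box ends 46 bases before the start of Rad54l and 81 bases before that of Brca1.
Rad54l: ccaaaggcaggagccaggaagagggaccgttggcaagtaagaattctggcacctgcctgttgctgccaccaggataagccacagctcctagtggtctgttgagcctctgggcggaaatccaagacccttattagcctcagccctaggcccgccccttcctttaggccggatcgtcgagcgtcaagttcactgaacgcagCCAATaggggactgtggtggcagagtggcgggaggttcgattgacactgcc
Brca1: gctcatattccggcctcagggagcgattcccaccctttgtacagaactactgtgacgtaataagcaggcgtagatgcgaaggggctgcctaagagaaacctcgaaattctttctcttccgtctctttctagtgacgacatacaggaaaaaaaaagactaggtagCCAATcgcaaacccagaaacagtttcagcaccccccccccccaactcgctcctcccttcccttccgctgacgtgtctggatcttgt
Of the entries of members that fell, 3 of 29 (10.3%) held an E2F match and 17 of 29 (58.6%) a CCAAT box. Of the entries of the other members 1 of 10 (10.0%) and 6 of 10 (60.0%) did. These 10 include 2 entries of Rad51b, each with a CCAAT box, a member whose level was too low to be tested. No test was made on these counts.

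In untreated cells the members covered a wide range of levels, which FPKM allows to be compared between genes. Above 10 FPKM stood 12 members, between 1 and 10 FPKM 31, and under 1 FPKM 1. Rpa1, the large subunit of RPA, was highest at 67.9 ± 2.08 FPKM (SD, n = 3), followed by the fork protection gene Tipin at 42.3 ± 0.832, Rpa2 at 27.1 ± 1.01, Topbp1 at 22.9 ± 0.4298 and the smallest RPA subunit Rpa3 at 21.6 ± 1.65. At the other end were Brca2 at 1.23 ± 0.0401, the BLM partner Rmi2 at 1.12 ± 0.141 and the recombinase paralog Rad51b at 0.71 ± 0.0758 FPKM. Of the 42 pairs of neighbours in this order among the tested members, 29 had overlapping libraries. Rad51b had 0.773, 0.626 and 0.731 FPKM in Ctrl, 1.04, 0.698 and 0.7599 in Ep1 and 0.545, 0.726 and 0.577 in Ep2, failed the filter and was not tested, which leaves 43 tested members. Rmi2 and Rad54b were under 1 FPKM in every Ep2 library and passed the filter through the other groups. The fewest fragments behind any member's value were 34, for Rmi2 in Ep2.

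At 10 J/cm2 no member passed the test. Of all tested genes 11.3% were called in Ep1 against Ctrl in either direction, and 0 of 43 members were, with 9 members (20.9%) at an unadjusted p below 0.05, beside 29.5% of all tested genes. The members' median log2 fold change was -0.04, beside -0.01 over all genes, and the values ran from -0.26 for Xrcc3 to 0.19 for Nbn. In 9 members (20.9%) all 3 Ep1 libraries lay under all 3 Ctrl libraries, close to the 20.5% of all tested genes, in 5 members (11.6%) they lay above, beside 20.8%, and in 29 they overlapped. The 5 above were Brca2, Rad51c, Topbp1, Nbn and Rbbp8.

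Topbp1 came nearest to a call in Ep1. Its libraries had 22.5, 23.3 and 23.1 FPKM in Ctrl and 24.6, 25.4 and 25.2 in Ep1, a difference on the log2 scale of 0.12 ± 0.038 (SE; adjusted p = 0.0652). The ranges were apart but close. Without Ep2 replicate 1, which changes only the shared estimate of spread, its adjusted p was 0.0414, and with Ctrl and Ep1 fitted alone it was 0.0440. No other fit called it, and the difference shrank to 0.07 (adjusted p = 0.222) after correction for length and to 0.03 (adjusted p = 0.685) after correction for length and GC content. A voom fit of the recovered fragments called 1 member, Rad54l, lower by 0.24 on the log2 scale (adjusted p = 0.0407), and the correction for length and GC content called Brca1, lower by 0.20 (adjusted p = 0.0300).

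At 20 J/cm2 most of the members were lower, against the same Ctrl libraries. Of 43 tested members 34 fell (79.1%), beside 29.3% of all tested genes that were called lower, and no member rose, beside 23.9% called higher; 9 were not called. The 34 falls ran from -1.21 to -0.21 on the log2 scale, and 14 of them were DEGs (32.6%), beside 5.87% of all tested genes. The DEG count was 18 with 0.1 added instead of 1, 18 with voom and 17 after correction for length and GC content. It was 13 with median centring and 13 after correction for length. The share over all genes was not taken in these fits. Rmi2, at 43.6% of its Ctrl mean, was no DEG, while Rpa1, at a higher level and 60.9% of Ctrl, was. The members' median was -0.45, beside -0.03 over all genes. In 36 members (83.7%) every Ep2 library lay under every Ctrl library, beside 32.7% of all tested genes, and in the other 7 the groups overlapped.

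**Figure D1:**
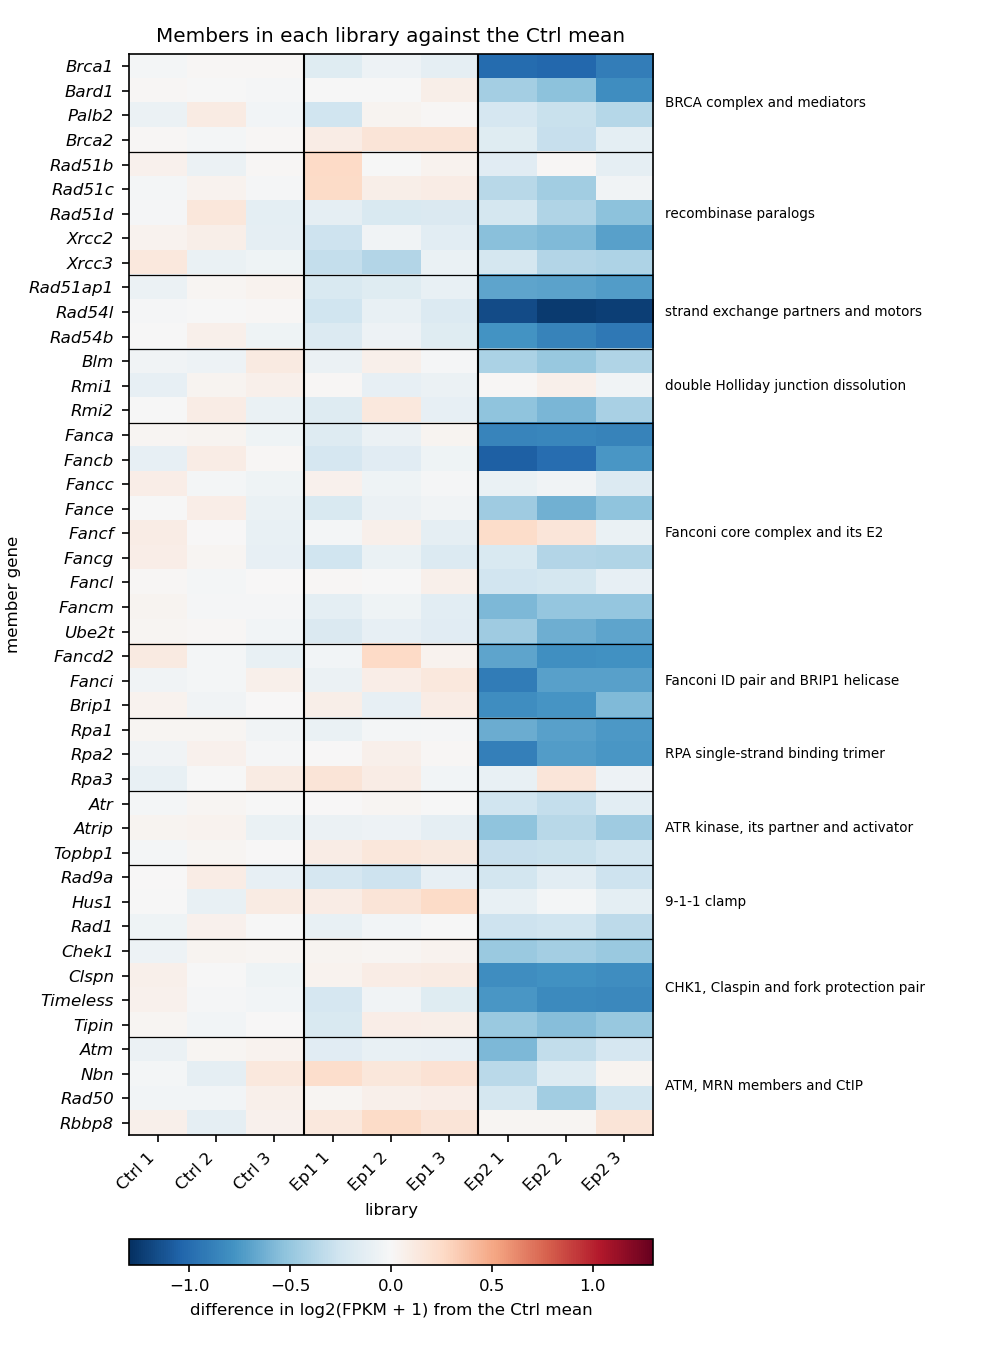
Difference of log2(FPKM + 1) from the Ctrl mean for the 44 members (rows, by role) in the 9 libraries (columns); blue is lower and red higher. The 3 Ep2 columns are mostly blue, deepest for Rad54l, while the mean differences of the tested members in Ep1 run from -0.26 to 0.19.

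**Figure D2:**
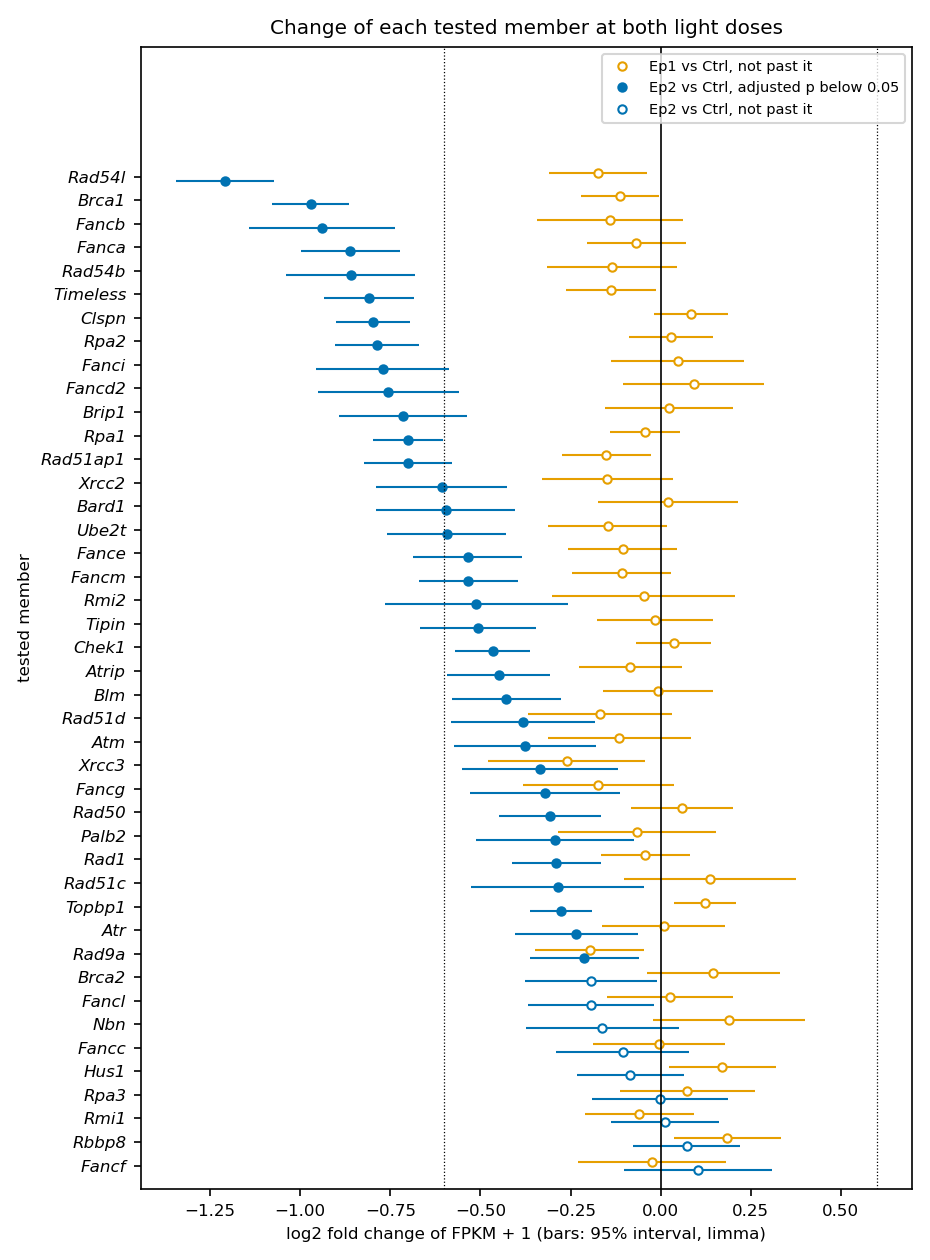
Log2 fold change of FPKM + 1 with its 95% interval from limma for the 43 tested members in Ep1 and Ep2 against Ctrl; filled points are past an adjusted p of 0.05 and dotted lines mark 0.6 either way. All Ep1 points are open, and 34 Ep2 points are filled, all to the left of 0.

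The strand exchange group held the largest fall. RAD54L and its relative RAD54B are motor proteins that remodel DNA around the recombinase filament, and RAD51AP1 helps the filament to capture the partner duplex. Rad54l (chr4:116094264-116123690 in GRCm38) had 3.998, 4.04 and 4.12 FPKM in the Ctrl libraries, 3.23, 3.74 and 3.48 in Ep1 and 1.26, 1.14 and 1.16 in Ep2. Ep2 kept 29.3% of the Ctrl mean (-1.21 on the log2 scale with an SE of 0.061, adjusted p = 2.17e-06), with a wide gap between the groups and Ep1 just under Ctrl. Rad54b had 2.0, 2.16 and 1.9 FPKM in the Ctrl libraries, 1.67, 1.89 and 1.696 in Ep1 and 0.762, 0.647 and 0.583 in Ep2. It was down to 32.9% of Ctrl (-0.86 on the log2 scale with an SE of 0.080, adjusted p = 3.04e-05), a change that its low level makes look smaller on the log2(FPKM + 1) scale. For Rad51ap1 the values were 5.56, 6.07 and 6.17 FPKM in the Ctrl libraries, 5.04, 5.19 and 5.495 in Ep1 and 3.31, 3.29 and 3.18 in Ep2. The Ep2 libraries lay close together and under both other groups (-0.70 on the log2 scale with an SE of 0.055, adjusted p = 1.28e-05). All 3 genes of the group were DEGs. The span of Rad54l shares 2780 bases with Lrrc41 on the other strand, a gene at 22.0 FPKM that changed by 0.08, and whether reads were counted by strand is not given in the sources used here.

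In the BRCA complex 3 of 4 members fell. BRCA1 and BARD1 form an E3 ubiquitin ligase that favours resection, PALB2 joins them to BRCA2, and BRCA2 loads the recombinase. Brca1 (chr11:101488764-101551955) had 14.01, 14.4 and 14.4 FPKM in the Ctrl libraries, 12.7, 13.6 and 13.1 in Ep1 and 6.65, 6.53 and 7.21 in Ep2. Its Ep2 mean was 47.6% of Ctrl (-0.97 on the log2 scale with an SE of 0.048, adjusted p = 2.17e-06), and the groups did not overlap. Bard1 had 5.58, 5.502 and 5.46 FPKM in the Ctrl libraries, 5.48, 5.49 and 5.85 in Ep1 and 3.79, 3.495 and 2.71 in Ep2. It was lower in Ep2 as well (-0.60 on the log2 scale with an SE of 0.086, adjusted p = 0.000356), just short of the DEG limit, and its Ep2 libraries spread more than its Ctrl libraries. Palb2 went from 1.97 ± 0.204 to 1.42 ± 0.124 FPKM (-0.29 on the log2 scale with an SE of 0.098, adjusted p = 0.0296), a call that was lost when Ctrl replicate 2 or 3 or Ep2 replicate 2 or 3 was left out (adjusted p up to 0.110). The Palb2 call was also lost with no filter (adjusted p = 0.0662) and with median centring (adjusted p = 0.0582). Brca2 had 1.26, 1.19 and 1.25 FPKM in Ctrl, 1.39, 1.52 and 1.51 in Ep1 and 1.01, 0.811 and 1.05 in Ep2. Its Ep2 libraries were all under Ctrl, and its interval of -0.38 to -0.01 lay below 0, but its adjusted p was 0.0729. The voom fit gave -0.36 and called Brca2. It was also called after correction for length (-0.29, adjusted p = 0.0160) and for length and GC content (-0.39, adjusted p = 0.0039), and in no other fit.

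The recombinase paralogs, which steady the filament in complexes with XRCC2 and XRCC3, all fell where they could be tested, 4 of 4. Xrcc2 had 4.52, 4.63 and 3.93 FPKM in the Ctrl libraries, 3.45, 4.195 and 3.88 in Ep1 and 2.67, 2.603 and 2.27 in Ep2. That made it the DEG nearest to the limit (-0.61 on the log2 scale with an SE of 0.081, adjusted p = 0.000227), with no overlap between Ep2 and Ctrl. Rad51d went from 8.07 ± 0.882 to 5.96 ± 0.737 FPKM (-0.38 on the log2 scale with an SE of 0.089, adjusted p = 0.00539). Xrcc3 fell by less (-0.33 on the log2 scale with an SE of 0.097, adjusted p = 0.0157), was at -0.26 with an adjusted p of 0.0632 without Ctrl replicate 1, and at -0.13 (adjusted p = 0.276) after correction for length and GC content. With the correction for length alone it was at -0.25 (adjusted p = 0.0540). The span of Xrcc3 shares 4653 bases with Klc1 on the other strand, a gene at 13.8 FPKM that changed by 0.02. Rad51c was just past the test (-0.29 on the log2 scale with an SE of 0.11, adjusted p = 0.0462) and lost its call in 8 of the 9 fits that left out 1 library, with an adjusted p of up to 0.155; without Ep2 replicate 3 it was kept. It was also lost with no filter, with median centring, with Ctrl and Ep2 fitted alone and after correction for length (adjusted p up to 0.104).

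**Figure D3:**
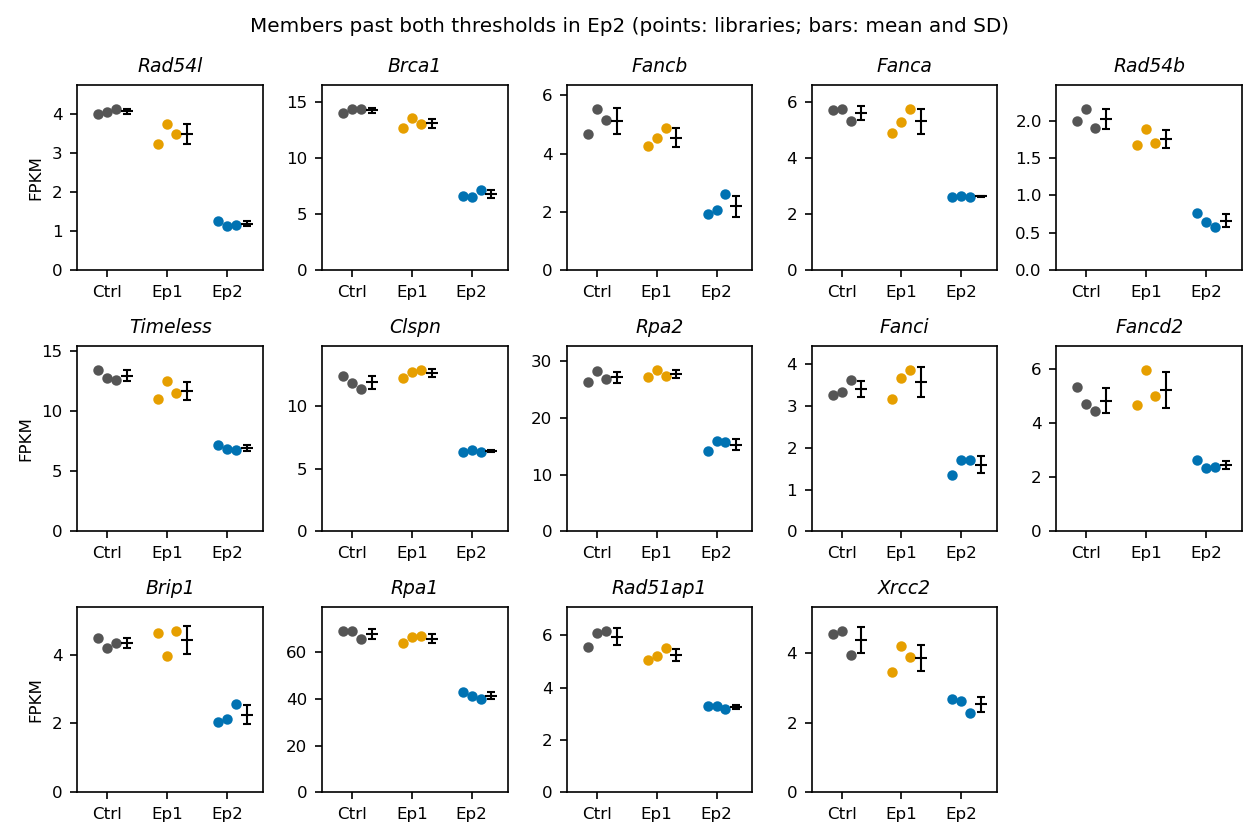
FPKM of the 14 members that were DEGs in Ep2 against Ctrl, by group; points are libraries and bars the mean and SD of 3. In every panel the 3 Ep2 points lie under all Ctrl and Ep1 points, and Rad54l shows the largest drop, to 29.3% of Ctrl.

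Among the genes that act on joined DNA molecules, the helicase gene Blm and Rmi2 fell while Rmi1 did not pass the test. BLM works with a topoisomerase, RMI1 and RMI2 to take double Holliday junctions apart without crossing over. Blm had 4.101, 4.01 and 4.68 FPKM in the Ctrl libraries, 3.998, 4.52 and 4.19 in Ep1 and 2.96, 2.74 and 3.02 in Ep2. No Ep2 library reached the lowest Ctrl library (-0.43 on the log2 scale with an SE of 0.068, adjusted p = 0.000617). Rmi2 was at 1.11, 1.27 and 0.994 FPKM in Ctrl, 0.892, 1.33 and 0.971 in Ep1 and 0.478, 0.404 and 0.5895 in Ep2. This was a drop to 43.6% of Ctrl (-0.51 on the log2 scale with an SE of 0.11, adjusted p = 0.00406). Rmi1 had 3.22, 3.69 and 3.79 FPKM in Ctrl and 3.602, 3.77 and 3.42 in Ep2, groups that overlapped (interval of the log2 difference -0.14 to 0.16). The spans of Rmi1 and Hnrnpk, a gene at 131 FPKM on the other strand, share 1096 bases.

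Of the Fanconi core complex and its E2 enzyme, 6 of 9 members fell. FANCA, FANCB, FANCC, FANCE, FANCF and FANCG build the complex around FANCL, and the translocase FANCM anchors it to DNA. Fanca had 5.72, 5.76 and 5.33 FPKM in the Ctrl libraries, 4.88, 5.28 and 5.75 in Ep1 and 2.63, 2.67 and 2.61 in Ep2. Its Ep2 values were nearly the same in all 3 libraries and 47.03% of Ctrl on average (-0.86 on the log2 scale with an SE of 0.061, adjusted p = 8.09e-06). Fancb, on the X chromosome at chrX:164980592-164997272, had 4.66, 5.54 and 5.16 FPKM in the Ctrl libraries, 4.25, 4.52 and 4.88 in Ep1 and 1.92, 2.08 and 2.604 in Ep2. With 42.97% of Ctrl left, it was the largest fall of the core complex (-0.94 on the log2 scale with an SE of 0.090, adjusted p = 3.62e-05). Ube2t went from 2.73 ± 0.0893 to 1.48 ± 0.2097 FPKM (-0.59 on the log2 scale with an SE of 0.074, adjusted p = 0.000148), at the edge of the DEG limit. Fance fell from 10.01 ± 0.661 to 6.597 ± 0.451 FPKM (-0.53 on the log2 scale with an SE of 0.067, adjusted p = 0.00016) and Fancm from 2.54 ± 0.0655 to 1.44 ± 0.0792 (-0.53 on the log2 scale with an SE of 0.061, adjusted p = 9.36e-05). Fancg, with the E2F match shown above, changed by -0.32 (adjusted p = 0.016) and was no longer called without Ctrl replicate 1, Ctrl replicate 2 or Ep2 replicate 2 (adjusted p up to 0.0618). After correction for length and GC content Fancg was at -0.20 and not called (adjusted p = 0.0829).

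The 3 core genes that were not called were Fancc, Fancf and Fancl. Fancf, an adaptor without introns, had 4.6, 4.26 and 3.92 FPKM in Ctrl and 5.18, 4.87 and 3.95 in Ep2. Its mean was 109.6% of Ctrl, the groups overlapped, and the interval was -0.10 to 0.31; after correction for length and GC content it was called higher by 0.33 on the log2 scale (adjusted p = 0.0036). Fancc changed by -0.11 (interval -0.29 to 0.08). Fancl, the catalytic subunit, had every Ep2 library under Ctrl, at 0.965, 0.999 and 1.18 against 1.37, 1.304 and 1.34 FPKM, with an adjusted p of 0.062 that became 0.0450 without Ep2 replicate 3. After correction for length and GC content Fancl was called lower by 0.24 (adjusted p = 0.0239), and no other fit called it.

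Downstream of the core, all 3 genes of the ID pair and the BRIP1 helicase were DEGs. FANCD2 and FANCI clamp onto DNA once ubiquitin is attached, and BRIP1 unwinds DNA as a partner of BRCA1. Fancd2 had 5.34, 4.71 and 4.47 FPKM in the Ctrl libraries, 4.695, 5.99 and 5.03 in Ep1 and 2.63, 2.35 and 2.39 in Ep2. Ep1 overlapped Ctrl and Ep2 lay under both (-0.76 on the log2 scale with an SE of 0.087, adjusted p = 9.76e-05). Fanci was at 3.27, 3.34 and 3.63 FPKM in the Ctrl libraries, 3.17, 3.67 and 3.86 in Ep1 and 1.35, 1.703 and 1.71 in Ep2. Ep2 replicate 1 was the lowest library, and the Ep2 mean was 46.6% of Ctrl (-0.77 on the log2 scale with an SE of 0.082, adjusted p = 6.38e-05). Brip1 had 4.48, 4.18 and 4.33 FPKM in the Ctrl libraries, 4.62, 3.95 and 4.69 in Ep1 and 2.05, 2.14 and 2.57 in Ep2. Here too no Ep2 library reached the other groups (-0.72 on the log2 scale with an SE of 0.079, adjusted p = 7.58e-05). Fanci shares 4034 bases of its span with Polg, at 7.51 FPKM on the other strand, which changed by -0.12.

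Within RPA, the trimer that coats single-stranded DNA, 2 of 3 subunits were DEGs and the third did not pass the test. Rpa1 had 68.97, 69.2 and 65.5 FPKM in the Ctrl libraries, 63.8, 66.7 and 67.1 in Ep1 and 43.02, 41.1 and 39.97 in Ep2. The drop was to 60.9% of Ctrl (-0.70 on the log2 scale with an SE of 0.043, adjusted p = 4.53e-06), well outside the spread of either group. Rpa2, whose product is phosphorylated under replication stress, had 26.2, 28.2 and 26.9 FPKM in the Ctrl libraries, 27.1, 28.5 and 27.4 in Ep1 and 14.2, 15.96 and 15.7 in Ep2. It was at 56.4% of Ctrl in Ep2 (-0.79 on the log2 scale with an SE of 0.052, adjusted p = 6.21e-06). Rpa3 had 20, 21.4 and 23.3 FPKM in the Ctrl libraries, 24.3, 23.04 and 20.9 in Ep1 and 20.1, 24.1 and 20.5 in Ep2. These 3 groups overlapped throughout, the Ep2 mean was 99.99% of Ctrl, and the interval of the log2 difference was -0.19 to 0.19, which does not reach the change of either other subunit.

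The sensor and activator genes of the ATR pathway fell in 5 of 6 cases, and none was a DEG. The 5 that fell kept from 65.7% of the Ctrl mean for Atrip to 85.2% for Rad9a. The log2(FPKM + 1) scale understates the falls of Atr and Atrip, which were at a few FPKM or less. Topbp1, which was above Ctrl in every Ep1 library, had 18.4, 18.6 and 19.3 FPKM in Ep2 against 22.5, 23.3 and 23.1 in Ctrl (-0.28 on the log2 scale with an SE of 0.038, adjusted p = 0.000281). The order of its libraries was thus Ep1 above Ctrl above Ep2, with no overlap between any of the 3 groups. The difference of Topbp1 between Ep1 and Ctrl was not called (adjusted p = 0.0652), and it was 0.03 after correction for length and GC content. Of all tested genes 20.8% had every Ep1 library above Ctrl. Atrip, the partner that binds RPA, fell from 3.57 ± 0.224 to 2.35 ± 0.187 FPKM (-0.45 on the log2 scale with an SE of 0.063, adjusted p = 0.000314). The kinase gene Atr changed from 1.497 ± 0.0408 to 1.13 ± 0.136 FPKM (-0.23 on the log2 scale with an SE of 0.076, adjusted p = 0.0267), and its call was lost when any Ctrl library or Ep2 replicate 1 or 2 was left out (adjusted p up to 0.0856). The Atr call was also lost with median centring (adjusted p = 0.0649) and with Ctrl and Ep2 fitted alone (adjusted p = 0.0666). In the 9-1-1 clamp, a ring of RAD9A, HUS1 and RAD1 loaded at the edge of single-stranded DNA, Rad1 had 3.97, 4.36 and 4.14 FPKM in the Ctrl libraries, 3.83, 4.03 and 4.15 in Ep1 and 3.28, 3.29 and 3.08 in Ep2. It was lower in Ep2 (-0.29 on the log2 scale with an SE of 0.055, adjusted p = 0.00175). Rad9a fell from 13.9 ± 1.09 to 11.9 ± 0.603 FPKM (-0.21 on the log2 scale with an SE of 0.067, adjusted p = 0.0234), was not called without Ctrl replicate 1 or 2 or Ep2 replicate 1 or 3 (adjusted p up to 0.0922), and was at -0.03 after correction for length and GC content. Its span overlaps that of Ppp1ca, at 277 FPKM, by 222 bases. Hus1 was not called, at 5.47, 5.08 and 5.99 FPKM in Ctrl and 5.1, 5.38 and 4.94 in Ep2 (interval -0.23 to 0.06).

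All 4 genes of the CHK1 branch fell. CHK1 is the effector kinase, Claspin the adaptor through which ATR reaches it, and TIMELESS with TIPIN keeps the replication fork coupled. Clspn had 12.4, 11.8 and 11.3 FPKM in the Ctrl libraries, 12.2, 12.7 and 12.9 in Ep1 and 6.35, 6.46 and 6.34 in Ep2. The Ep2 libraries were close together, at 53.9% of Ctrl (-0.80 on the log2 scale with an SE of 0.046, adjusted p = 3.40e-06). Timeless had 13.4, 12.7 and 12.6 FPKM in the Ctrl libraries, 10.96, 12.5 and 11.5 in Ep1 and 7.21, 6.83 and 6.78 in Ep2. It fell by a similar amount (-0.81 on the log2 scale with an SE of 0.055, adjusted p = 6.72e-06), with Ep1 slightly under Ctrl. Chek1 went from 7.603 ± 0.336 to 5.22 ± 0.1102 FPKM (-0.47 on the log2 scale with an SE of 0.046, adjusted p = 4.39e-05) and Tipin from 42.3 ± 0.832 to 29.5 ± 0.769 (-0.51 on the log2 scale with an SE of 0.072, adjusted p = 0.000317), both without overlap.

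At the start of break repair 2 of 4 members fell. ATM is the kinase that answers to breaks, RAD50 and NBN belong to the end-processing complex, and Rbbp8 encodes CtIP. Rad50 had 19.2, 19.2 and 20.6 FPKM in the Ctrl libraries, 20.1, 20.6 and 20.9 in Ep1 and 16.6, 14.1 and 16.5 in Ep2. All Ep2 values were under Ctrl (-0.31 on the log2 scale with an SE of 0.063, adjusted p = 0.00273). Atm fell from 5.37 ± 0.294 to 3.93 ± 0.629 FPKM (-0.38 on the log2 scale with an SE of 0.088, adjusted p = 0.00541). Nbn had 14.2, 13.3 and 16.01 FPKM in Ctrl, 17.1, 16.2 and 16.6 in Ep1 and 11.2, 12.8 and 14.8 in Ep2. Ep2 replicate 3 lay within the Ctrl range and the other Ep2 libraries under it. The log2 difference was -0.16 (adjusted p = 0.178) with all libraries and -0.26 (adjusted p = 0.0273) without Ep2 replicate 3. Rbbp8 had 9.91, 8.57 and 9.79 FPKM in Ctrl, 10.5, 11.3 and 10.7 in Ep1 and 9.59, 9.56 and 10.7 in Ep2. Ep2 overlapped Ctrl, at 0.07 with an interval of -0.08 to 0.22.

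The higher and the lower light dose were also set against each other, with the Ep2 libraries shared with the comparison above. Of 43 members 33 were lower in Ep2 than in Ep1 (76.7%), beside 25.2% of all tested genes, and none was higher, beside 18.8%; 13 were DEGs (30.2%), beside 3.97%. The median was -0.42, beside -0.01 over all genes, and in 34 members (79.1%) the Ep2 libraries lay under all Ep1 libraries, beside 30.3% of all tested genes. Rad54l differed most (-1.03 on the log2 scale with an SE of 0.061, adjusted p = 5.71e-06), followed by Clspn at -0.88, Brca1 at -0.86, Fancd2 at -0.85, Rpa2 and Fanci both at -0.82. The order after Rad54l depends on the 1 that is added: Rad54b, at -0.73 on this scale, went from 1.75 ± 0.119 to 0.664 ± 0.0907 FPKM, and the voom fit gave it -1.35, second to Rad54l at -1.51. Bard1 was a DEG here (-0.62 on the log2 scale with an SE of 0.086, adjusted p = 0.000442), while Rad51ap1 and Xrcc2 were below the DEG limit at -0.55 and -0.46. Brca2, Hus1, Nbn and Fancl, which were not called against Ctrl, were lower in Ep2 than in Ep1 at -0.34, -0.25, -0.35 and -0.22. After correction for length and GC content Fancf was called higher by 0.23 (adjusted p = 0.0236). The Hus1 call was lost without Ep1 replicate 3 (adjusted p = 0.0511), and those of Fancl, Atr and Atm were lost in at least 5 of the fits that left out 1 library (adjusted p up to 0.135, 0.0868 and 0.0944). Only the fit with 0.1 added instead of 1 and the fit without Ep2 replicate 3 kept the Fancl call. The Atr and Atm calls were also lost with median centring (adjusted p = 0.0741 and 0.0811) and with Ep1 and Ep2 fitted alone (0.0623 and 0.0670). With no filter the Atm call was lost too (adjusted p = 0.0941). Of all calls in this comparison 57.2% were lower; with every library centred on its median this share was 44.5%, and among the members 30 were then lower and none higher.

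Because subunits of the same complex did not all move alike, log2 ratios of FPKM were taken between 14 pairs of members that act together. The pairs were chosen after the values were seen, and an exact two-sided permutation test of 3 against 3 libraries cannot go below 0.1, so none could pass the threshold. In 8 pairs all Ep2 libraries lay on the same side of Ctrl (p = 0.1 by this exact test, 0.175 after adjustment over the 14 pairs). Within RPA, the BLM complex and the clamp every pairing of 3 genes was taken, and each ratio there follows from the others. The 14 pairs are therefore not separate observations. The same count was not taken for pairs of other genes, so it has no background share. Of single tested genes 32.7% had every Ep2 library under every Ctrl library. The Rpa1/Rpa3 ratio was 1.79, 1.70 and 1.49 in Ctrl and 1.10, 0.77 and 0.97 in Ep2, a difference of -0.71. Rpa2/Rpa3 moved from 0.33 ± 0.11 to -0.49 ± 0.11 (SD, n = 3 each), while Rpa1/Rpa2 overlapped. Blm/Rmi1 went from 0.26 ± 0.12 to -0.31 ± 0.14 and Rmi2/Rmi1 from -1.67 ± 0.23 to -2.89 ± 0.34. With 1 added to each FPKM, which was tried after seeing the data, the Rmi2/Rmi1 difference was -0.52 instead of -1.22, and that of Blm/Rmi2, higher in Ep2, was 0.08 instead of 0.66. Timeless/Tipin went from -1.71 ± 0.04 to -2.09 ± 0.04. In the clamp, Rad9a/Rad1 was higher by 0.14 in Ep2, and Rad1/Hus1 was lower than in Ctrl at both doses, at -0.25 in Ep1 and -0.27 in Ep2. In 4 pairs all Ep1 libraries lay under Ctrl (exact p = 0.1, 0.35 after adjustment): beside Rad1/Hus1 these were Rad9a/Hus1 at -0.41, Brca1/Bard1 at -0.15 and Rad50/Nbn at -0.14. This count has no background share either. Of single tested genes 20.5% had every Ep1 library under Ctrl and 20.8% above. The ratios of Brca1 to Bard1, Fancd2 to Fanci, Atr to Atrip and Rad50 to Nbn overlapped between Ep2 and Ctrl.

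**Figure D4:**
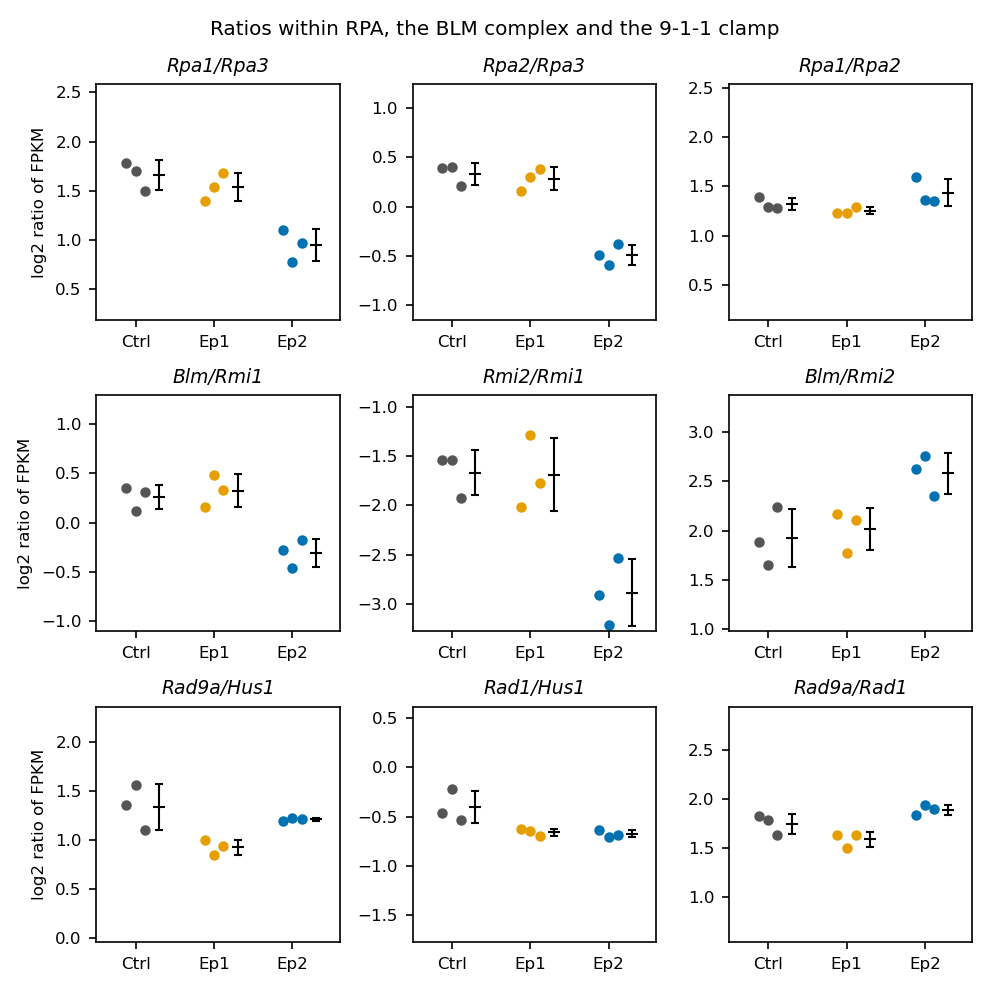
Log2 ratio of FPKM between subunits of RPA (top), the BLM complex (middle) and the 9-1-1 clamp (bottom) in each library, with the mean and SD of 3 beside the points; every panel spans the same range of ratios. Both RPA ratios against Rpa3 and both ratios against Rmi1 drop in Ep2, and Rpa1/Rpa2 does not separate.

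Other genes of the same pathways were counted in the same way. Of 41 further names, some of them aliases, 37 genes were in the table and all were tested. In Ep2 18 fell (48.6%), beside 29.3% of all tested genes, and none rose, beside 23.9%. Of the 37, 5 were DEGs, all lower, beside 5.87% of all tested genes. The median was -0.15, beside -0.03 over all genes. The smallest adjusted p belonged to Dna2, a nuclease and helicase of long-range resection, at 4.55 ± 0.34 FPKM in Ctrl and 1.89 ± 0.09 in Ep2 (log2 fold change -0.94, adjusted p = 8.36e-06), to the ubiquitin ligase gene Rfwd3 at -0.50 and to Babam1 of the BRCA1-A complex at -0.59. The other DEGs were Cdc25c, a phosphatase gene downstream of CHK1, at -0.74, Mcm8, a helicase subunit gene, at -0.69, Cenps, whose product binds FANCM, at -0.66, and Usp1, which takes ubiquitin off FANCD2, at -0.65. In Ep1 1 of the 37 (2.7%) was called, Swi5, lower by 0.20 on the log2 scale (adjusted p = 0.0425), beside 11.3% of all tested genes called in either direction. Top3a, which encodes the topoisomerase of the BLM complex and is named here after its value was seen, had 9.15 ± 0.69 FPKM in Ctrl and 9.14 ± 0.41 in Ep2. Mre11a, the partner of Rad50 and Nbn, is also named after its value was seen. It had 11.5 ± 0.43 FPKM in Ctrl and 7.97 ± 1.185 in Ep2 (log2 fold change -0.49, adjusted p = 0.0013).

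Other repair routes and cell cycle genes stand beside these values as description. In Ep2, 5 of 9 tested end joining genes were lower (55.6%) and 1 higher (median -0.25). Of 18 base excision repair genes 12 were lower (66.7%) and 1 higher, with 6 DEGs (median -0.47). Of 19 nucleotide excision repair genes 9 were lower (47.4%) and 3 higher (median -0.11). Markers of S phase were lower in 35 of 37 cases (94.6%) with 22 DEGs and a median of -0.72. Markers of G2 and mitosis were lower in 50 of 53 (94.3%) with 30 DEGs and a median of -0.63. Over all tested genes 29.3% were lower and 23.9% higher, 5.87% were lower DEGs, and the median was -0.03. The members' median of -0.45 lay between those of nucleotide excision repair and of the cell cycle markers, and close to that of base excision repair. S phase markers that are members had been left out of their list, so that list and the members are apart by choice. In Ep1 the S phase list had 2 genes higher and none lower, and the G2 and mitosis list 2 higher and 1 lower. Of all tested genes 11.3% were called in Ep1 in either direction. The part of this change of cell cycle markers in the result for the members was not tested.

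**Figure D5:**
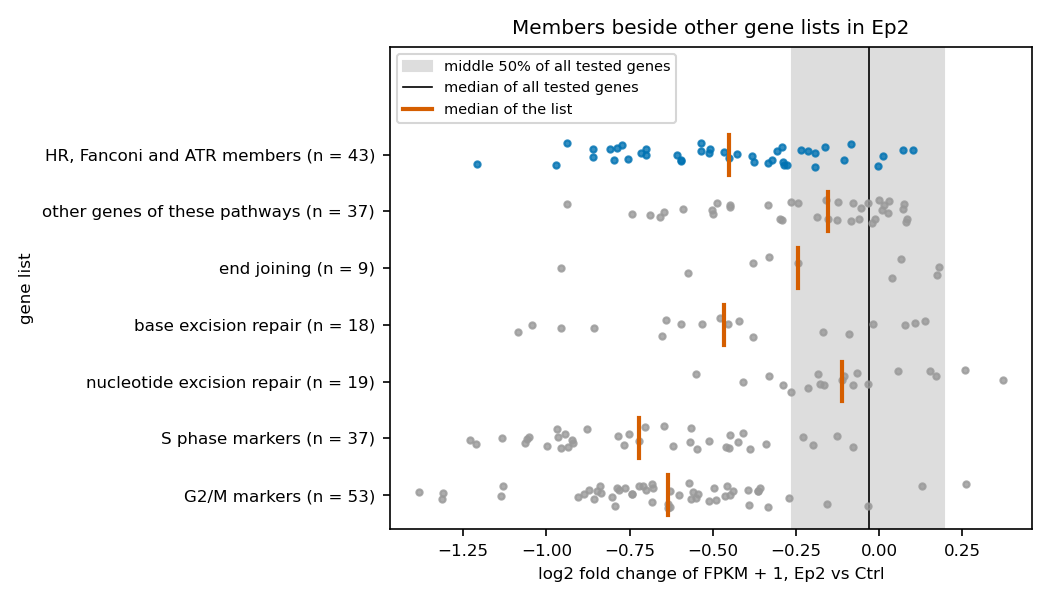
Log2 fold change of FPKM + 1 in Ep2 against Ctrl for each tested gene of the members (blue) and of 6 other lists (grey), with the list medians in orange and the middle 50% of all tested genes shaded. The members' median lies at -0.45, left of the shaded band. Those of base excision repair, the S phase markers and the G2/M markers lie further left, at -0.47, -0.72 and -0.63.

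Other properties of the genes are given as description. Across the 43 tested members, which share the 6 libraries, Spearman's rho of the log2 fold change was -0.18 with gene length, -0.22 with transcript GC content and -0.17 with the Ctrl level, and -0.20, -0.19 and 0.08 for the voom fold changes.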

How the data were processed

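RNA of 9 libraries was analysed, 3 each of Ctrl, Ep1 and Ep2. The deposited files hold FPKM values per gene, which the authors scaled to gene length and library total; the submitters' processing notes name Bowtie 0.12.2 and mm8, and the study's methods name GRCm39. Coordinates in the table overlapped those of GRCm38 for 99.88% of 36522 genes compared and those of GRCm39 for 12.37%, so GRCm38 is used here. Values times gene length were whole multiples of a fixed step in 100% of cases (tolerance 0.05), which gave fragments per gene. The single-library tables equalled the joint table in all 9 libraries. Log2(FPKM + 1) of genes with at least 1 FPKM in at least 3 libraries was fitted with limma 3.58.1 (trend and robust variance) in R 4.3.3 over all groups, after tests on simulated data. Every member could be named; all 9 values are given for DEGs and for the smallest adjusted p of each role. The members and lists were chosen with earlier results of these data known. Alternatives were another pseudocount (0.1), filter, scaling, replicate block, voom, length and GC correction, and leaving out each library. RefSeq promoters were matched by symbol. The FPKM precision rests on counting and library error; the depth was 16240688 to 19509225 fragments.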

Additional observations from a re-analysis of the deposited data

How the results depend on the processing

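No result reversed. Of the 34 members lower in Ep2 against Ctrl, 28 were called in every fit that tested them, and 29 of the 33 lower in Ep2 against Ep1. The count of lower members in Ep2 against Ctrl was 29 to 34 when 1 library was left out and 30 to 35 in the other fits, except 12, with 5 DEGs, under a minimum mean of 5 FPKM, which tested fewer members; Ep2 against Ep1 then also gave 12. The median of the members in Ep2 against Ctrl was -0.53 with a pseudocount of 0.1, -0.42 with the stricter filter, -0.40 with median centring, -0.53 with voom and -0.52 with the length and GC correction, an alternative chosen after seeing the data. In Ep2 against Ep1 it was -0.53 with a pseudocount of 0.1, -0.37 with median centring, -0.49 with voom, and -0.44 to -0.39 with 1 library left out. In Ep1 the count was 1 with only the groups compared, 1 with voom, 1 with the length and GC correction and 0 to 1 with 1 library left out; the median was 0.032 with the stricter filter and -0.052 to -0.018 with 1 library left out. The causes of these shifts were not tested, apart from the filter's smaller number of genes. With the replicate block 0, 33 and 31 members were called in Ep1, Ep2 and Ep2 against Ep1; it lost Rad51c in Ep2 (adjusted p = 0.0664) and Fancl and Atr in Ep2 against Ep1 (0.0686 and 0.0519). The numbers do not pair the libraries: deviations of same-numbered libraries correlated at -0.06 to 0.07 over 9 pairs, and of others at -0.11 to 0.15 over 18. Depth limits the lowest members, of which the fewest fragments were 34.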
